A study of Arabidopsis thaliana with 2 samples.

Results

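The transfer RNA (tRNA) genes of the Arabidopsis nuclear chromosomes were examined for open chromatin in 2 lists of MNase hypersensitive sites (MHSs). The members were all genes of biotype tRNA on chromosomes 1 to 5 of the TAIR10.1 annotation, 625 of the 37899 annotated genes and pseudogenes. Both libraries came from wild-type seedlings of the ecotype Columbia (Col-0), 2 weeks old and without treatment, which formed 1 group with 2 biological replicates. In MH-seq, fixed nuclei are digested lightly with micrococcal nuclease (MNase) and the short fragments released are sequenced, so that regions rich in such fragments mark accessible DNA. The first library carried no replicate number in its label and is named replicate 1 here. Whole seedlings were used, so a site present in some cell types only could not be told from one present in all.

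tRNA genes are read by RNA polymerase III. Their promoter lies mostly inside the gene, in an A box and a B box that bind the factor TFIIIC, which places TFIIIB just upstream of the start. In plants the upstream DNA often holds TATA-like runs and a CAA triplet at the start, and transcription ends at a run of T. Arabidopsis carries most of its tRNA genes as scattered copies, but also as tandem arrays of tRNA-Pro genes and of tRNA-Tyr and tRNA-Ser genes, and chromosome 2 holds a large nuclear insertion of mitochondrial DNA with tRNA genes of its own.

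The 625 genes were 69 to 90 bp long with a median of 73 bp, and covered 20 amino acids and 48 kinds of amino acid and anticodon. They had only 226 distinct sequences. The most repeated one, a tRNA-Pro with the anticodon TGG, occurred 34 times. An intron was annotated in 81 genes, 70 of tRNA-Tyr and 11 of tRNA-Met. A gene was taken as single when no other tRNA gene started within 3 kb, which held for 446 genes. A further 128 genes lay in 6 arrays, runs of at least 5 genes that each started within 3 kb of the one before, and 51 lay in 24 small clusters of 2 to 4 genes.

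Sequences on which the comparisons turned are shown here for TAIR10.1, each with the 40 bp before and the 20 bp after the gene in lower case and the gene itself in capitals. The first set shows tRNA-Pro TGG from the first array, AT1G28740 at chr1:10090328-10090459 (plus strand), the scattered gene AT3G06335 of identical sequence at chr3:1920013-1920144 (minus strand), and AT3G27825 of the scattered kind at chr3:10318222-10318353 (plus strand).
AT1G28740, array: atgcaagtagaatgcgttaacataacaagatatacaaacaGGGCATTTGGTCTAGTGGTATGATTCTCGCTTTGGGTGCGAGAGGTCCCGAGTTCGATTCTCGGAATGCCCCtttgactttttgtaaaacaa
AT3G06335, single: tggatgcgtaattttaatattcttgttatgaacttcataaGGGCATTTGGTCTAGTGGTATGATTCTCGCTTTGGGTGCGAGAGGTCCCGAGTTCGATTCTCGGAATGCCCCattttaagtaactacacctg
AT3G27825, single: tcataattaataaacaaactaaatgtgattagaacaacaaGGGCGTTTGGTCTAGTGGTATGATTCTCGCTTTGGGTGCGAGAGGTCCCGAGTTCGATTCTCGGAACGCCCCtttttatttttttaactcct

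Counted from 1 at the 5′ end of the gene, the array sequence differed from the scattered kind, which has 8 copies, by the substitutions G5A and C67T. The second set shows tRNA-Ser AGA and tRNA-Tyr GTA. AT1G56760 at chr1:21270256-21270397 (plus strand) and AT1G56750 at chr1:21269512-21269656 (plus strand) belong to the longest array. AT1G15650 at chr1:5380867-5381008 (plus strand) is a scattered tRNA-Ser gene equal to AT1G56760 in sequence, and AT3G10415 at chr3:3238347-3238496 (minus strand) is a single tRNA-Tyr gene.
AT1G56760, array: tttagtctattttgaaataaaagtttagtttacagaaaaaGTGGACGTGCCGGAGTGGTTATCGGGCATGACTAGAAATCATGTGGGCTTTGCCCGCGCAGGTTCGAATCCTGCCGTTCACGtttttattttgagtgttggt
AT1G15650, single: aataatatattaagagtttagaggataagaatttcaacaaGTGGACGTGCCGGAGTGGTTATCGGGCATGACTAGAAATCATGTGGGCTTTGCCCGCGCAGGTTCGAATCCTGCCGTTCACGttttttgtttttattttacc
AT1G56750, array: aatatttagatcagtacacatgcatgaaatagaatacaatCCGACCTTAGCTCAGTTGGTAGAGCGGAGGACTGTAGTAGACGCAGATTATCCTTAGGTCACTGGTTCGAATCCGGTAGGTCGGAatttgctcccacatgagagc
AT3G10415, single: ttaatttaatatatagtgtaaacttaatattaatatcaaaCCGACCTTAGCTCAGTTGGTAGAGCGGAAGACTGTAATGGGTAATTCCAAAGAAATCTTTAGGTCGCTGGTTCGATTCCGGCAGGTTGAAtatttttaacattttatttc

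The third set shows 2 initiator tRNA-Met genes, which start translation, and an aspartate gene. AT5G67455 at chr5:26921632-26921763 (plus strand) had MHSs over nearly all of its surroundings, and AT1G42120 at chr1:15730595-15730726 (minus strand) had none. AT1G03515 at chr1:877608-877739 (plus strand) is 1 of 21 tRNA-Asp genes with the same sequence.
AT5G67455, single: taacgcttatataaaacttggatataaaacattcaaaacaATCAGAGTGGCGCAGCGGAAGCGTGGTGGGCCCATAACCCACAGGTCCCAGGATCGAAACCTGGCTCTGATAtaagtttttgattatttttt
AT1G42120, single: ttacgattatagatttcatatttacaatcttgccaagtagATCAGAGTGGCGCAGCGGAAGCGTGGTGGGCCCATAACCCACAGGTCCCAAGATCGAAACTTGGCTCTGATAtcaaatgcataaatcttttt
AT1G03515, single: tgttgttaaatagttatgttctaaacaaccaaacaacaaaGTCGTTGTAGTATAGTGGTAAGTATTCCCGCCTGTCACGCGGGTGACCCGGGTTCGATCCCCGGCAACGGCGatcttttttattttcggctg

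The lists of MHSs held 70046 sites over 11.7% of chromosomes 1 to 5 in replicate 1 and 49934 sites over 9.26% in replicate 2. They give positions only. Reads were not analysed here, so the depth behind a single MHS is unknown, and replicate 1 had more short sites, with 36.4% of at most 100 bp against 13.4% in replicate 2. Each share carries an exact 95% binomial interval by the Clopper-Pearson method, which covers counting only. Genes are not independent replicates of a condition, and with 1 group no test between conditions was possible. Only reads with a mapping quality above 10 had been kept by the authors, so sequence present more than once could receive few or no reads. For this reason the share of 31-mers that occur a single time in the reference, organelles included, is given beside the results, and called the unique share.

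It was first asked how many tRNA genes had an MHS in the window of the gene and 200 bp on each side. In replicate 1, 442 of 625 genes (70.7%, interval 67.0 to 74.3%) had at least 1 MHS, against 62.3% of all annotated genes and pseudogenes in windows of 473 bp that started 200 bp before the gene start. In replicate 2, 410 genes (65.6%, interval 61.7 to 69.3%) did, against 55.7%. Both replicates had an MHS at 398 genes (63.7%), where the background was 53.6%. The mean over the replicates was 68.2% ± 3.62 (SD, n = 2), and the difference from all gene starts was 8.39 points in replicate 1 and 9.92 points in replicate 2. Pseudogenes are part of that background and seldom had an MHS, as given below. Windows of the same length laid end to end along the chromosomes held an MHS in 29.4% and 23.7% of cases.

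Among the other classes of genes, protein-coding genes had an MHS at their start in 74.5% and 66.8% of cases, above the interval of the tRNA genes as a whole in replicate 1 and within it in replicate 2. Genes of small nuclear RNAs (snRNAs), which form the spliceosome, had one in 64.6% and 65.9% of 82 genes. Small nucleolar RNA (snoRNA) genes, which guide the modification of other RNAs, had one in 46.0% and 43.6%, and microRNA (miRNA) genes in 35.9% and 28.2%. Pseudogenes had one in 4.26% and 3.14% of 3917 cases, and transcribed pseudogenes in 28.2% and 21.9% of 926. Both kinds lower the background of all gene starts. The excess of tRNA genes over a background without pseudogenes was not computed.

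The moderate overall share combined opposite patterns. Of the 446 single genes, 401 (89.9%) had an MHS in replicate 1 and 371 (83.2%) in replicate 2, 361 in both and 35 in neither, with a mean of 86.5% ± 4.76 (SD, n = 2). In the small clusters 39 and 37 of 51 genes had an MHS. In the arrays only 2 of 128 genes did, the same 2 genes in both replicates. The single genes lay 88.3 points above the array genes in replicate 1 and 81.6 points above them in replicate 2, so the difference was far larger than the distance between the replicates. However, the array windows had a median unique share of 0%, against 88.7% for single genes. Where sequence is repeated, a lack of MHSs cannot be told from a lack of reads, so each array is described on its own below.

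A further division was made after the data were seen. In 24 of the 625 windows at least 50% of the 31-mers also occurred in the chloroplast or mitochondrial sequence of the reference, and these genes are named organelle-like. All but 1 of them, 23 genes, lay on chromosome 2 between 3255832 and 3503608. Of the 15 single organelle-like genes, 1 had an MHS in replicate 1 and another 1 in replicate 2. The other 431 single genes, named nuclear-type, had an MHS in 400 cases (92.8%, interval 89.9 to 95.1%) in replicate 1 and in 370 cases (85.8%, interval 82.2 to 89.0%) in replicate 2. Before this division, single genes of chromosome 2 had the lowest share of the 5 chromosomes, 76.1% and 68.7%. After it, chromosome 2 had 96.2% (interval 87.0 to 99.5%) and 84.9%, and the other 4 chromosomes had 88.6 to 95.6% in replicate 1 and 82.9 to 89.4% in replicate 2. The organelle-like single genes had a median unique share of 0%, and the part of mapping in their low share was not tested.

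**Figure D1:**
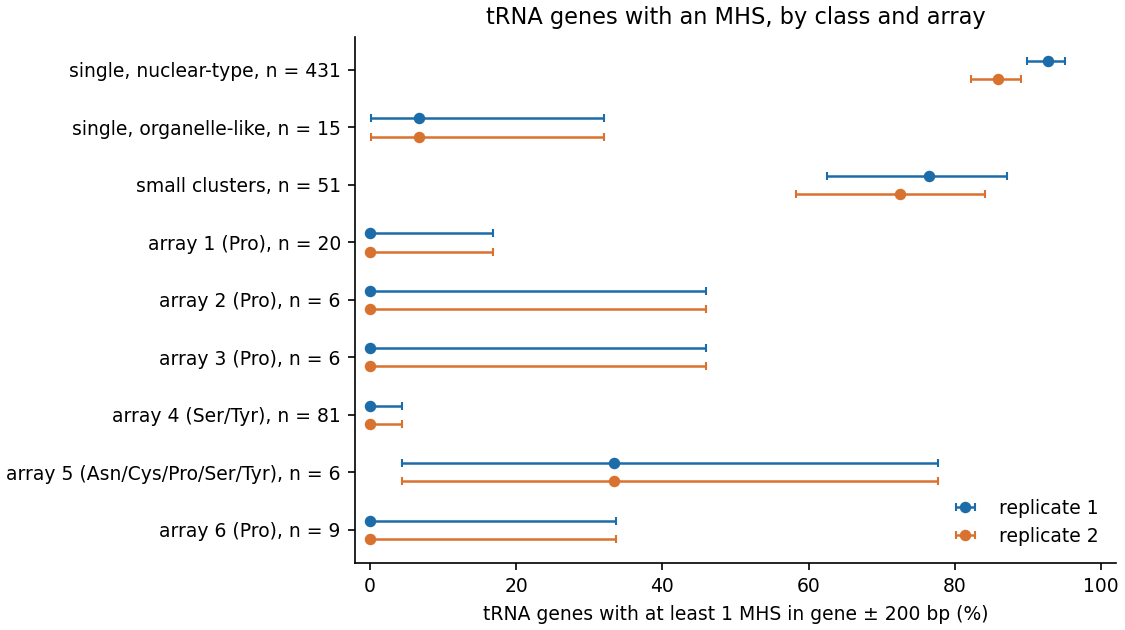
Share of tRNA genes with at least 1 MHS in the gene and 200 bp on each side (x axis, %) for single genes, small clusters and each of the 6 arrays (y axis, with the number of genes), in replicate 1 (blue) and replicate 2 (orange). Bars are exact 95% binomial intervals. Nuclear-type single genes lie at 92.8% and 85.8%, 5 arrays lie at 0% in both replicates, and the array of mixed amino acids on chromosome 2 lies at 33.3%.

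The position of MHSs was then read against the gene start, with the first base of the gene as 0. Around nuclear-type single genes the share of genes covered by an MHS rose from 19.0% at position -300, in either replicate, to 81.2% at position -57 in replicate 1 and 76.3% at position -26 in replicate 2. At the starts of protein-coding genes the highest values were 59.5% and 50.0%. Taking the 200 bp upstream alone, 66.4% and 62.2% of all 625 tRNA genes had an MHS there, against 58.3% and 50.2% of all annotated genes and pseudogenes. For single genes this was 84.5% and 78.9% upstream, 70.2% and 74.9% in the gene itself, and 64.6% and 60.3% in the 200 bp downstream.

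Inside the gene the replicates parted. In replicate 1 coverage fell to 9.74% of nuclear-type single genes at 54 bp from the start, near the end of the gene, and rose again to 53.6% at 155 bp. In replicate 2 the lowest value in the gene was 47.3%, at 72 bp. The middle of the gene, 36 bp from the start, was covered in 23.2% of genes in replicate 1 and in 65.2% in replicate 2. In replicate 1, 187 genes (43.4%) had MHSs on both sides with an uncovered gap in between that held the middle of the gene. Gaps that left the middle of the gene covered were not counted. This gap began at a median of 9 bp (quartiles -1 and 28 bp) after the first base and ended at a median of 11 bp (quartiles -1 and 41.5 bp) after the gene end, with a median length of 86 bp. In replicate 2 such a gap was seen at 31 genes (7.19%), and at all 31 it was present in replicate 1 as well.

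The unique share inside the gene moved with this dip. Of the 431 genes, 341 had no unique 31-mer in the gene, and among these the lowest coverage was 5.28% in replicate 1 and 40.8% in replicate 2. Among the 52 genes whose own sequence was at least 50% unique, it was 32.7% and 71.2%. A dip below the upstream peak of 73.1% in replicate 1 was thus also present where most of the gene was unique, while in replicate 2 the fall was from 86.5% to 71.2%. How much of the dip came from the mapping of reads was not tested.

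**Figure D2:**
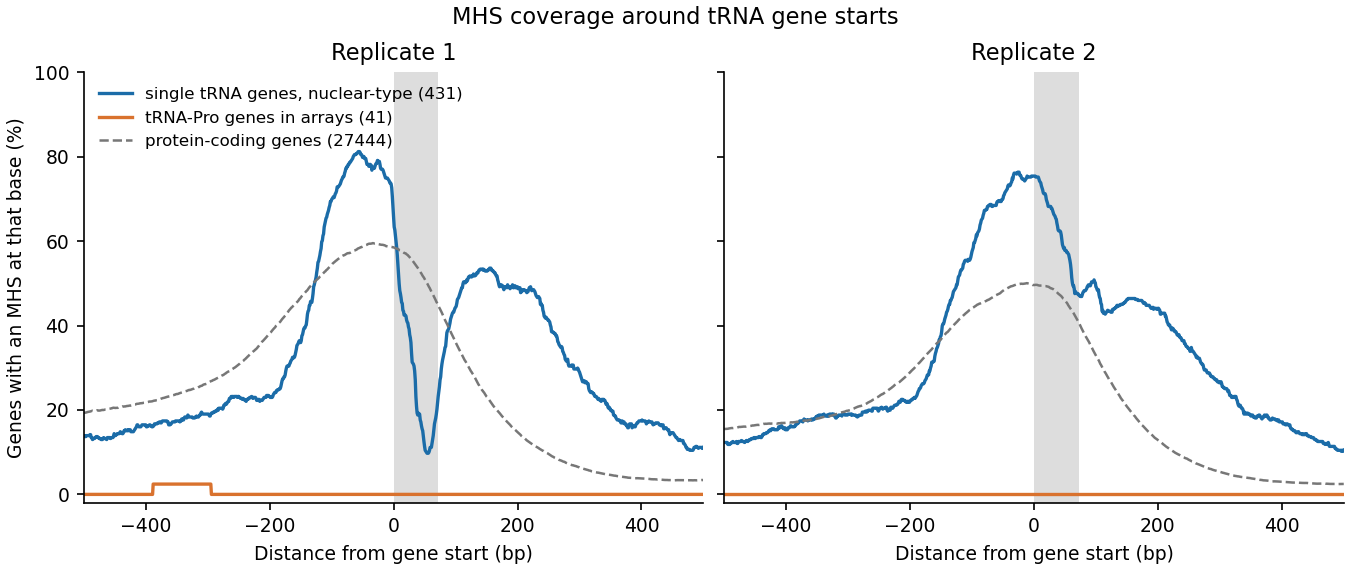
Share of genes covered by an MHS at each base (y axis, %) from 500 bp before to 500 bp after the gene start (x axis, bp) for the 431 nuclear-type single tRNA genes (blue), the 41 tRNA-Pro genes of arrays (orange) and 27444 protein-coding genes (dashed grey), with replicate 1 on the left and replicate 2 on the right. The grey band marks a gene of the median length of 73 bp. Single tRNA genes peak just upstream of the start at 81.2% and 76.3%, dip within the gene in replicate 1 to 9.74%, and the array genes stay at or near 0.

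MHSs in tRNA windows were found again more often than MHSs in general. Of 746 such MHSs in replicate 1, 605 (81.1%, interval 78.1 to 83.8%) overlapped an MHS of replicate 2, against 61.9% of all MHSs. Conversely, 522 of 548 (95.3%, interval 93.1 to 96.9%) of replicate 2 overlapped replicate 1, against 86.9%. Their median length was 151 bp in replicate 1 and 221 bp in replicate 2, against 146 bp and 187 bp over all MHSs. Sites of at most 100 bp made up 24.1% and 6.20% of them, against 36.4% and 13.4% of all MHSs. Longer sites overlap more readily, and no comparison at equal length was made. Single genes mostly held 2 MHSs in replicate 1 (224 genes, with 145 genes at 1) and mostly 1 in replicate 2 (250 genes, with 112 at 2). A single MHS spanned the whole gene in 25 cases in replicate 1 and in 173 cases in replicate 2.

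By amino acid, most nuclear-type single genes of every kind had an MHS in either replicate. All 10 tRNA-His genes and all 16 tRNA-Tyr genes had an MHS in both replicates, and so did all 10 elongator tRNA-Met genes, which supply methionine inside proteins. With intervals from 69.2 to 100% for 10 genes, shares of this size did not stand apart from the 92.8% and 85.8% of all such genes. All 22 tRNA-Thr, 14 tRNA-Asn and 12 tRNA-Phe genes had an MHS in replicate 1, and 21, 13 and 11 of them had one in replicate 2. tRNA-Leu, with 32 and 31 of 33 genes, and tRNA-Glu, with 22 of 23 in either replicate, followed. The lowest shares in replicate 1 were those of tRNA-Ala and tRNA-Lys, each with 23 of 27 genes (85.2%, interval 66.3 to 95.8%). In replicate 2, 22 and 21 of them had an MHS.

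tRNA-Pro stood at 22 of 24 genes (91.7%) in replicate 1 and at 15 of 24 (62.5%, interval 40.6 to 81.2%) in replicate 2. The upper bound in replicate 2 lay below the 85.8% of all nuclear-type single genes, but this was 1 kind among 20 and held for 1 of the 2 libraries. In the median, single tRNA-Pro genes had 231.5 bp of the window covered in replicate 1 and 214.5 bp in replicate 2. tRNA-Tyr genes had the highest median in replicate 1, at 333.5 bp, and tRNA-Phe genes the highest in replicate 2, at 360 bp, followed by tRNA-Trp at 350 bp and tRNA-Tyr at 346 bp.

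**Figure D3:**
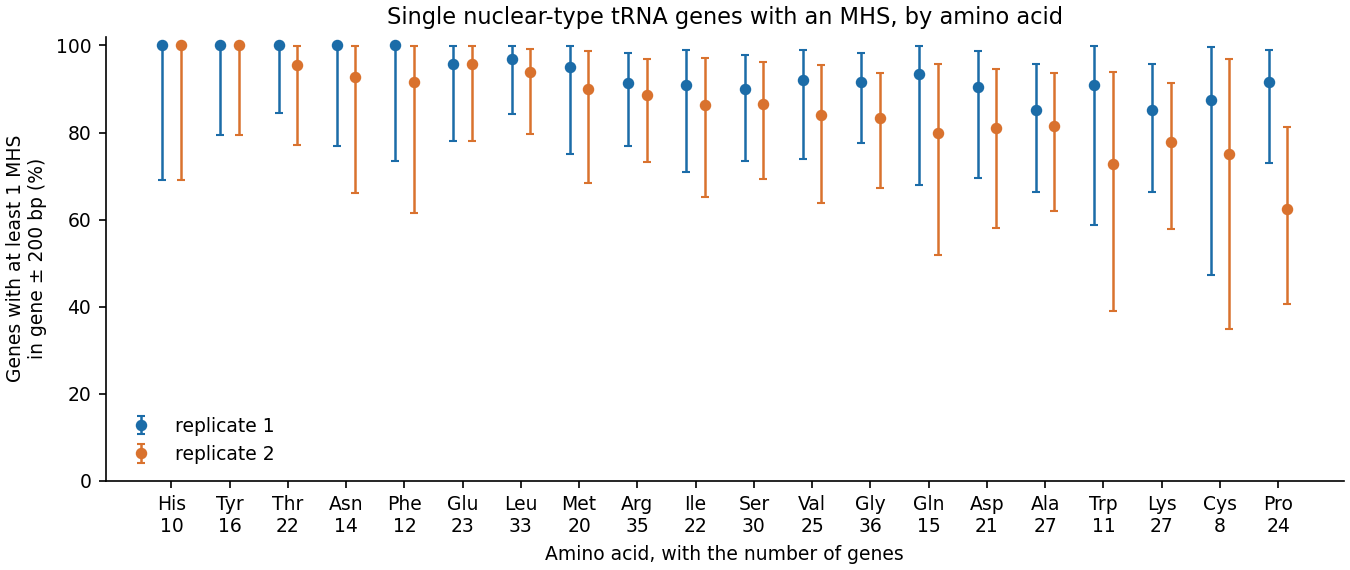
Share of nuclear-type single tRNA genes with at least 1 MHS in the gene and 200 bp on each side (y axis, %) by amino acid (x axis, with the number of genes), in replicate 1 (blue) and replicate 2 (orange). Bars are exact 95% binomial intervals. tRNA-His and tRNA-Tyr lie at 100% in both replicates, the lowest value is 62.5% for tRNA-Pro in replicate 2, and the intervals of most kinds overlap.

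Below the amino acid, anticodons of 1 kind could differ. Of the 6 nuclear-type single tRNA-Ser genes with the anticodon TGA, 3 had an MHS in both replicates and 3 in neither, whereas all 11 tRNA-Ser GCT genes had an MHS in both. For 10 tRNA-Ser AGA genes the counts were 10 and 9. The 16 tRNA-Ala AGC genes gave 12 and 11, and 4 had none, while all 11 tRNA-Ala genes with CGC (5 genes) or TGC (6 genes) had an MHS in both replicates. These counts are small and were singled out after their values were seen.

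Introns are found in tRNA-Tyr and elongator tRNA-Met genes. All 26 single genes with an intron had an MHS in both replicates (interval 86.8 to 100%), 16 of them tRNA-Tyr. The 3 single tRNA-Tyr genes without an intron were all organelle-like, with an MHS at 0 of 3 in replicate 1 and at 1 of 3 in replicate 2. Of the 10 nuclear-type initiator tRNA-Met genes, 9 had an MHS in replicate 1 and 8 in replicate 2.

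Genes with exactly the same sequence could be in either state. The 18 single copies of the commonest tRNA-Asp gene, of which AT1G03515 is shown above, had an MHS in 18 cases in replicate 1 and 16 in replicate 2. All 10 copies of a tRNA-Leu AAG gene had an MHS in both replicates. By contrast, of 12 single copies of tRNA-Ala AGC, 7 had an MHS in both and 4 in neither, and of 14 single copies of tRNA-Lys CTT, 10 had one in both and 2 in neither. The 11 single copies of tRNA-Gly GCC had an MHS in 10 and 7 cases, with 6 in both. Within each of these sets the genes share their sequence and differ in their place in the genome. Their surroundings were not compared, and the part of these in the states was not tested. The sets are examples picked from the repeated sequences, and the tRNA-Ala AGC copies are among those counted above by anticodon.

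The most covered single gene of each amino acid gave a closer view. In these 20 genes MHSs covered 314 to 490 bp of the window in replicate 1 and 366 to 490 bp in replicate 2. They were chosen for this coverage, so its height is no finding. The middle of the gene was covered in 10 of 20 in replicate 1 and in all 20 in replicate 2, and 1 MHS spanned the whole gene in 5 and in 15 of them. The window held the start of a protein-coding gene in 12 of the 20.

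The tRNA-Tyr gene AT3G10415 lay under a single MHS in each replicate, which covered all 490 bp of its window. In replicate 1 this MHS was 1237 bp long, from position -876 to 360, and in replicate 2 it was 642 bp long, from -277 to 364. The start of the protein-coding gene AT3G10410 lay in the window. The tRNA-Ile gene AT5G66568 was also under 1 MHS in either replicate, and its window likewise held a protein-coding start. This MHS was 533 bp long, from position -193 to 339, in replicate 1. In replicate 2 it was 534 bp long, from -180 to 353.

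Other genes showed the divided form in replicate 1 only. At the initiator gene AT5G67455, MHSs of replicate 1 ran from position -407 to 48 and again from 63 to 269, whereas 1 MHS of 699 bp covered the gene in replicate 2. The nearest protein-coding start lay 1293 bp from its window, but the tRNA gene itself overlapped a protein-coding gene. A second initiator gene, AT1G69000, was similar, with 454 and 472 bp of its window covered. At AT1G03515 the MHSs of replicate 1 ended at position 9 and resumed at 77, and that of replicate 2 ran through, over 485 bp. The tRNA-Glu gene AT1G75650 was divided in both replicates. There the upstream MHS ended at position -1 and the next began at 84 in replicate 1. In replicate 2 the upstream one ended at 36 and the next began at 68. The windows of AT1G69000, AT1G03515 and AT1G75650 each held the start of a protein-coding gene.

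**Figure D4:**
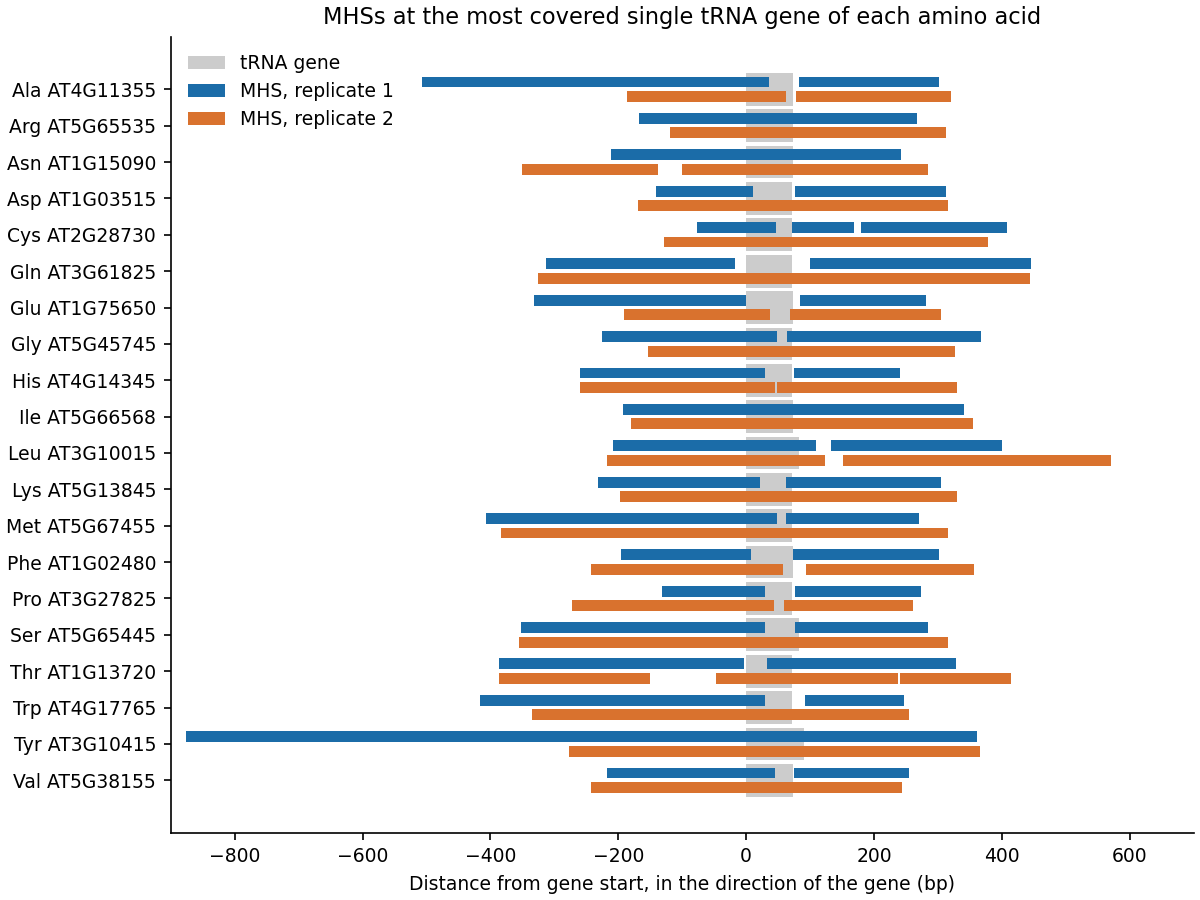
MHSs of replicate 1 (blue) and replicate 2 (orange) at the most covered single tRNA gene of each amino acid (y axis), drawn to scale against the distance from the gene start in the direction of the gene (x axis, bp). Grey bars are the tRNA genes. The middle of the gene is uncovered in 10 of 20 genes in replicate 1 and in none in replicate 2.

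Many tRNA genes lie close to protein-coding genes, whose starts are themselves often open. Of the 431 nuclear-type single genes, 170 had the start of a protein-coding gene inside the window, and 168 (98.8%) and 164 (96.5%) of these had an MHS. At more than 200 and up to 1000 bp from such a start the values were 78 and 63 of 87 (89.7% and 72.4%). More than 1 kb away, 114 of 131 genes (87.0%, interval 80.0 to 92.3%) had an MHS in replicate 1 and 103 (78.6%, interval 70.6 to 85.3%) in replicate 2. Coverage in these 131 genes had its highest value at position -26 in both replicates, at 71.0% and 69.5%. Of the 6966 windows at starts of annotated genes of any kind that lay equally far from a protein-coding start, 21.0% and 17.7% held an MHS. These starts include those of pseudogenes and of tRNA genes, and were not filtered for repeats, clusters or organelle-like sequence. Over all 270 tRNA genes at that distance, arrays included, the mean share of the replicates was 45.7%. Inside protein-coding genes lay 35 of the 431, and 28 and 26 of these had an MHS.

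Sequence features of polymerase III genes were counted on the strand of the gene, as descriptions. A match is no proof of a site. A CAA in the 10 bp before the start was present in 72.6% of the 625 tRNA genes, against 19.6% of all annotated genes in the same place. TATA in the 50 bp before the start was present in 60.3% against 35.4%. TTTT in the 20 bp after the gene end was present in 84.0% against 23.1%. Inside the gene, the B box core GTTCGANNC was present in 78.7% and the A box core TNGCNNAGT in 42.6%, against 1.50% and 1.47% of windows of 73 bp at all gene starts. All gene starts include those of the tRNA genes, so the members themselves raise these background shares. Shares without them were not computed. Overlaps between motifs were not removed, and the core patterns are narrow, so that no tRNA-Pro gene among the 24 single and 41 array genes matched the A box core.

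Among nuclear-type single genes, those with TTTT after the gene had an MHS in 93.5% and 88.2% of 398 cases. The 33 genes without it had one in 84.8% (interval 68.1 to 94.9%) and 57.6% (interval 39.2 to 74.5%), so the intervals overlapped in replicate 1 and not in replicate 2. The median distance from the window to a protein-coding start also differed, at 184.5 bp with TTTT and 543 bp without it. The part of TTTT in the MHSs was not tested. With CAA the shares were 93.3% and 85.9% of 327 genes, and without it 91.3% and 85.6% of 104. With TATA they were 92.8% and 86.6% of 276 genes, and without it 92.9% and 84.5% of 155. MNase is known to cut A/T-rich DNA most readily. The upstream 50 bp had a median A/T content of 76% both in nuclear-type single genes with an MHS in both replicates and in those with none. Over all single genes it was 76% and 74%. The part of A/T content in the MHSs was not tested.

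Single genes without any MHS numbered 35, of which 13 were organelle-like. In the other 22 the flanks were at least 90% unique in 18 and below that in 4. Among all nuclear-type single genes, 4 of the 9 with flanks below 90% unique had no MHS (44.4%), against 18 of the 422 with more unique flanks (4.27%). The part of mapping in the lack of MHSs was not tested. Of the 22, 13 lay more than 1 kb from a protein-coding start, 17 had TTTT after the gene and 17 had CAA before it. The most unique of them was the tRNA-Arg CCG gene AT3G12585 on chromosome 3 from 3995097 to 3995169, inside a protein-coding gene, with all its 31-mers unique. The initiator gene AT1G42120 followed, at 90.3% unique and 13246 bp from the nearest protein-coding start. Compared with AT5G67455 it had the substitutions G51A and C61T. The tRNA-Pro gene AT5G46105, the tRNA-Ala gene AT4G12065 and the tRNA-Lys gene AT4G22754 were the next, the latter pair at 89.8% unique. Each had other copies of the same sequence elsewhere.

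The arrays were then taken one by one. The 4 tRNA-Pro arrays lay on chromosome 1 from 10089437 to 10102064 (20 genes), from 10106090 to 10108781 (6 genes) and from 17156607 to 17162093 (6 genes), and on chromosome 2 from 14350386 to 14356592 (9 genes), with all genes on the plus strand. None of these 41 genes had an MHS in its window in either replicate (interval 0 to 8.60%). Single tRNA-Pro genes, at 91.7% and 62.5%, lay above this interval, with lower bounds of 73.0% and 40.6%. Not all of them share a sequence with the arrays. Of those that do, the 1 TGG copy and 5 of 6 AGG copies had an MHS in replicate 1. In replicate 2 only 1 of the 6 AGG copies did, and the TGG copy did not. Intervals for these copies alone were not computed. Moreover, 5 of the 24 single tRNA-Pro genes lay more than 1 kb from a protein-coding start, against 28 of the 41 array genes. At that distance 3 and 2 of the 5 single genes had an MHS (intervals 14.7 to 94.7% and 5.27 to 85.3%). None of the 28 array genes did (interval 0 to 12.3%), so the intervals overlapped in replicate 2. The spans of the arrays were 85.1 to 92.9% unique and the flanks of the genes had a median unique share of 100% and a lowest of 84.1%. Most 31-mers around these genes thus had 1 place in the reference, unlike those of the other arrays.

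In the first of them, 2 MHSs of each replicate lay between genes, all within chr1:10095120-10095579 and outside every tRNA window. This stretch lies between the tRNA genes AT1G28810 and AT1G28820, next to the long non-coding RNA genes AT1G06173 and AT1G06177 and before the start of the protein-coding gene AT1G28815. In the other 3 tRNA-Pro arrays the whole span had no MHS. The 10 kb on the left and right of the tRNA-Pro arrays were counted in the order given above. Replicate 1 held 2 and 3, 1 and 3, 2 and 7, and 3 and 12 MHSs there. For replicate 2 the counts were 3 and 2, 1 and 1, 3 and 7, and 0 and 4. The first 2 arrays lie within 10 kb of each other, so their sides overlap.

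The features counted above were also found at these genes. Of the 41, 30 (73.2%) had CAA before the start, 40 (97.6%) had TTTT after the gene and 36 (87.8%) had the B box core, against 75.9%, 92.3% and 75.9% of the nuclear-type single genes. TATA was present in 18 (43.9%) against 64.0%. Single tRNA-Pro genes alone had CAA in 83.3%, TTTT in 95.8%, the B box core in 54.2% and TATA in 62.5% of cases. The median A/T content of the 50 bp upstream was 68%, lower than the 78% of single tRNA-Pro genes, and 28 of the 41 lay more than 1 kb from a protein-coding start. All 13 genes closer to such a start likewise had no MHS. The part of these features in the lack of MHSs was not tested.

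Of the 34 copies of the commonest tRNA-Pro gene, 33 lay in arrays without an MHS. The remaining copy, AT3G06335, stood alone on chromosome 3 and had 107 bp of its window covered in replicate 1 and none in replicate 2. A tRNA-Pro gene with the anticodon AGG had 3 copies in arrays, with no MHS, and 6 single copies, of which 5 had an MHS in replicate 1 and 1 in replicate 2. This gene differed from the commonest one by T33A and G56A. Of the single AGG copies, AT3G29095 had none in either.

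The longest array held 81 genes, 54 of tRNA-Tyr and 27 of tRNA-Ser, on chromosome 1 from 21268787 to 21308471. No MHS of either replicate lay anywhere in its 39685 bp, while the 10 kb on its left held 11 and 7 MHSs and the 10 kb on its right 5 in either replicate. For the 81 windows the interval of a share of 0 reached up to 4.45%. However, only 1.41% of the 31-mers of the span were unique and no window had flanks above 18.2% unique, so that most of its sequence had several equal placements in the reference. A lack of MHSs here and a lack of readable sequence cannot be told apart. Genes were spaced by a median of 458 bp and had 23 distinct sequences.

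The tRNA-Ser AGA gene of this array gave a comparison with copies elsewhere. Its sequence occurred 20 times, 13 times in the array, without an MHS, and 7 times alone. Of the 7 single copies all had an MHS in replicate 1 and 6 in replicate 2. AT5G16375 had 425 and 400 bp of its window covered, AT1G15650 had 275 and 325 bp, and AT1G80430 had 169 and 0 bp. The flanks of all 7 were 100% unique. The tRNA-Tyr sequences of the array had no single copy.

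All 27 tRNA-Ser genes of the array had TATA upstream and TTTT after the gene, but none had CAA before the start. The 54 tRNA-Tyr genes all had CAA, yet only 15 (27.8%) had TTTT in the 20 bp after the gene, against all 16 nuclear-type single tRNA-Tyr genes. AT1G56750, shown above, is 1 of 19 identical genes of this kind.

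The remaining array lay on chromosome 2 from 3494382 to 3497440 and held 6 genes of 5 amino acids in organelle-like sequence, where only 1.02% of the 31-mers were unique. It had MHSs at 2 genes in both replicates. At the tRNA-Cys gene AT2G07763 an MHS of 113 bp in replicate 1 and of 188 bp in replicate 2 covered the upstream flank. At the tRNA-Tyr gene AT2G07765, 302 and 394 bp were covered, in 2 MHSs on either side of the gene in both replicates. Neither window had a unique 31-mer, so the nuclear or organellar origin of the reads behind these sites cannot be told apart.

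**Figure D5:**
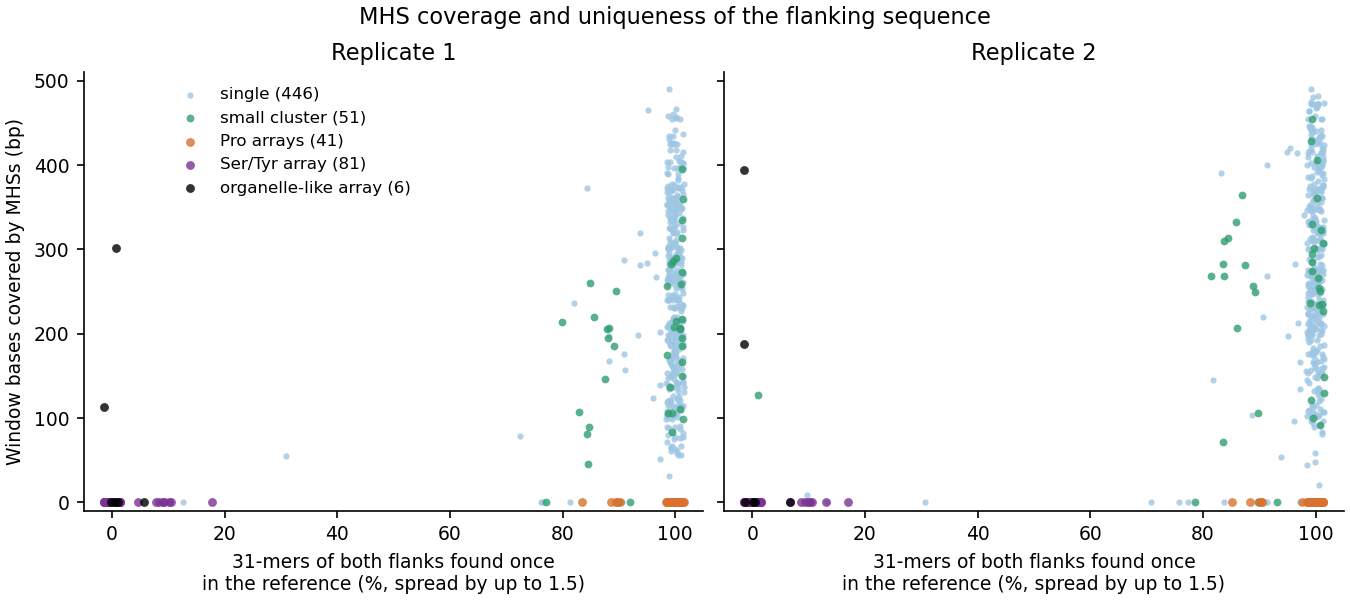
Bases of each tRNA window covered by MHSs (y axis, bp) against the share of 31-mers in both flanks that occur a single time in the reference (x axis, %, points spread sideways at random by up to 1.5) for 446 single genes, 51 genes of small clusters and the 128 array genes, with replicate 1 on the left and replicate 2 on the right. The 41 tRNA-Pro array genes lie at 0 bp with flanks of 84.1 to 100% unique, and the 81 genes of the longest array lie at 0 bp with flanks of at most 18.2%.

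Grouped by the flanks, 422 single genes with flanks at least 90% unique had an MHS in 93.6% and 86.7% of cases, and the 24 single genes with less unique flanks in 25% and 20.8%. Of the array genes, 39 had flanks at least 90% unique, all of tRNA-Pro, and none had an MHS (interval 0 to 9.03%). All 24 single tRNA-Pro genes also had such flanks, with an MHS in 91.7% and 62.5% of cases. Not all of these share their sequence with an array gene, as given above. In the median, neither these single nor the array tRNA-Pro genes had a unique 31-mer in the gene itself. The part of mapping in the difference was not tested. In the small clusters, 39 of 48 nuclear-type genes (81.2%, interval 67.4 to 91.1%) had an MHS in replicate 1 and 36 (75%, interval 60.4 to 86.4%) in replicate 2. These intervals overlapped those of the nuclear-type single genes.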

How the data were processed

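Col-0 seedlings 2 weeks old gave 2 MH-seq libraries, and 1 list of MHSs per library was used. Each deposited list holds a chromosome, a start and an end for every MHS, with no score, count or signal. The authors used Cutadapt for trimming and Bowtie 2 in local mode for alignment to TAIR10. They then removed alignments that were not full length or whose mapping quality was at most 10, and ran Jazz on each library separately. The submitters' processing notes also name deepTools, and versions are not given in the sources used here. The mapping filter lowers the signal in repeated sequence, and the reads themselves were not analysed here, so no depth stands behind a single MHS.

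Starts in the lists were taken to count from 0 and are printed 1-based. For 19 of 19 sites whose sequence the study lists, this reading gave the same sequence in TAIR10.1, the reference used here with its RefSeq annotation. All 625 tRNA genes carried an amino acid and an anticodon there. Overlap required at least 1 bp. The window was the gene and 200 bp on each side, and background windows of 473 bp started 200 bp before the start of every annotated gene or pseudogene. Unique 31-mers occur a single time in chromosomes 1 to 5 and the organelle sequences together, on either strand. Motifs were searched on the gene strand only. Named genes were, by covered bases summed over both replicates, the most covered single gene of each amino acid, the 5 most covered single genes, the 5 single genes without an MHS and with the highest unique share, each array and up to 5 of its genes, and the initiator genes as a group. Other genes are named because they share a sequence with these or with the arrays.

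The members, the lists and the motifs were chosen with earlier results of these data known. The division at 50% organelle 31-mers was added after the data were seen. No test was run. Alternatives changed the flank, the overlap, the MHSs, the windows, the distance that defines arrays, and the replicate. Python 3.11.15 with numpy 2.4.6, scipy 1.17.1 and matplotlib 3.10.9 was used, and the functions for overlap, position, runs and 31-mers recovered the known answer in 7 of 7 tests on simulated data.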

Additional observations from a re-analysis of the deposited data

How the results depend on the processing

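The values reported as means of both replicates were recomputed under other settings, and no difference changed its direction. All gene starts include those of pseudogenes here too. The share of all tRNA genes with an MHS, 68.2% as reported, was 72.1% with flanks of 500 bp, 56.7% in the gene body alone, 63.6% with MHSs above 100 bp only, 89.7% in windows at least 90% unique and 45.7% in windows over 1 kb from a protein-coding start, where arrays make up a larger part. Its excess over all gene starts, 9.16 points, was 11.3 points with flanks of 100 bp, 5.90 with 500 bp, 11.8 by MHS midpoint, 10.3 with an overlap of at least 50 bp, 24.0 in windows at least 90% unique, 26.4 in windows over 1 kb from a protein-coding start and 11.1 without organelle-like windows. For single genes the share of 86.5% was 72.5% in the gene body alone, 81.1% with MHSs above 100 bp, 92.5% in unique windows and 78.8% far from protein-coding starts. For array genes the share of 1.56% was 5.08% with flanks of 500 bp, 0.781% in the gene body, 1.74% and 1.54% with arrays defined at 1 kb and 10 kb, and 0% in unique windows (4 array genes), far from protein-coding starts or without organelle-like windows. Single minus array genes, 85.0 points, gave 71.8 in the gene body, 79.5 with MHSs above 100 bp, 92.5 in unique windows and 78.8 far from protein-coding starts. The upstream share of 64.3% was 48.2% by midpoint, 59.4% with an overlap of at least 50 bp, 57.7% with MHSs above 100 bp, 85.8% in unique windows and 42.0% far from protein-coding starts. The share of MHSs found in both replicates, 88.2%, was 61.6% at a reciprocal overlap of at least 50%. With either replicate left out, the ranges were 65.6 to 70.7% for all genes, 8.39 to 9.92 points for the excess, 83.2 to 89.9% for single genes, 1.56% for array genes, 81.6 to 88.3 points for their difference and 62.2 to 66.4% upstream. Of 74 alternatives, 41 stayed within 1 SD of the replicates and 33 did not. With 2 replicates, leaving either out stays within 1 SD by arithmetic, so those alternatives could not count as outside. For array genes the SD was 0, so any change counted as outside. The tally is therefore no measure of robustness, and an SD from 2 replicates is itself poorly known. No paired analysis was possible because the libraries form 1 group. In repeated or organelle-like sequence these lists do not tell closed chromatin from unread sequence.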
